A study of Caenorhabditis elegans with 2 samples.

Results

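A group of 8 genes of the protein folding and heat shock response was examined for candidate binding sites of the transcription factor EOR-1 in Caenorhabditis elegans. They were 8 of the 19973 protein-coding genes annotated on the 6 chromosomes: hsp-1, hsp-90, dnj-13, hsp-3, hsp-70, hsp-16.2, hsp-4 and hsf-1. A candidate was assigned to a gene when its summit lay inside the gene or within 2000 bp of a transcript start of that gene. The genes were selected on measured values, because the ranks, signal values and replicate entries of their candidates in these same lists were known when the genes were listed. All counts over them are therefore descriptions, and none was tested.

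Heat shock proteins are chaperones that bind unfolded proteins, and they fall into families named after their size. Some are made at all times to fold new proteins, while others are made mainly when heat or other damage unfolds proteins already present. In animals the heat-inducible set is switched on by heat shock factor, a trimer that binds repeats of a short unit in alternating orientation, the heat shock element. Unfolded protein in the endoplasmic reticulum (ER) switches on a separate set through its own sensors. EOR-1 is a BTB zinc finger protein of the PLZF family that is best known for its part in Ras and Wnt signalling during larval development.

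Chromatin immunoprecipitation and sequencing was directed at GFP-tagged EOR-1 in whole L3 larvae of both sexes of strain OP81, with the genotype unc-119(ed3) III; wgIs81. There was 1 group of 2 biological replicates, with no stress treatment and no untagged group in the labels, and whole animals mix all tissues. The protein measured was the product of the integrated wgIs81 transgene, in animals that carry an unc-119 mutation. On the ce11 genome the lists held 2488 entries for replicate 1, 2610 for replicate 2, 6708 candidates for the pooled reads and 33 peaks kept by the irreproducible discovery rate procedure, called thresholded peaks here.

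The sequences under 2 upstream candidates are shown because both held repeats of GAGAGA near the summit and had entries in both replicates. They are from the RefSeq WBcel235 assembly (ce11), plus strand, which is also the strand of both genes. The first spans the strongest candidate at any of the 8 genes, upstream of hsp-1 (chrIV:17278506-17278656), and the second the 200 bases before the start of dnj-13 (chrII:11545501-11545700). Capitals mark GAGAGA, here read on the opposite strand.
hsp-1 upstream summit: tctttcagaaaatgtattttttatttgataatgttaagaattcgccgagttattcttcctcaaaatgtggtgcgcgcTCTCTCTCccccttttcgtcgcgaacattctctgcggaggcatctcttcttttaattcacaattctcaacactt
dnj-13 start: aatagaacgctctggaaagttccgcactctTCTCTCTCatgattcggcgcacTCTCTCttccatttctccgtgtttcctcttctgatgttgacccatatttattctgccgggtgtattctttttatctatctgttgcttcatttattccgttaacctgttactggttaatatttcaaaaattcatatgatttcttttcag
Overlapping repeats are joined in 1 capital run. In the hsp-1 sequence the centres of the overlapping matches lay 5 and 7 bp from the summit, and in dnj-13 the nearest match lay 25 bp from it.

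The next sequences are shown because they hold heat shock elements beside candidates, or at a start with no candidate beside it. A pair of heat shock units was taken as GAANNTTC or TTCNNGAA, where N is any base, and overlapping pairs make elements of 3 units in alternating orientation. Capitals mark the pairs, and all sequences are plus strand of ce11. They are the 150 bases before the hsp-1 start (chrIV:17278809-17278958), the 100 bases before the first hsp-90 start (chrV:14684818-14684917), and the 220 bases between hsp-16.2 and its divergent neighbour hsp-16.41 (chrV:1804958-1805177). The last is the candidate between the divergent Hsp70 genes F44E5.4 and F44E5.5 (chrII:11759427-11759647).
hsp-1 start: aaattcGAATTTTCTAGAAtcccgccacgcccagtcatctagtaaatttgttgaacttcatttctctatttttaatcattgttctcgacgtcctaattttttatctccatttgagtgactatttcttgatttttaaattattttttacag
hsp-90 start: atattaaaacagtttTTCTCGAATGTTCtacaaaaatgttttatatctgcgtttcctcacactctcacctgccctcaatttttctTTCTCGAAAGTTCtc
hsp-16.2 to hsp-16.41: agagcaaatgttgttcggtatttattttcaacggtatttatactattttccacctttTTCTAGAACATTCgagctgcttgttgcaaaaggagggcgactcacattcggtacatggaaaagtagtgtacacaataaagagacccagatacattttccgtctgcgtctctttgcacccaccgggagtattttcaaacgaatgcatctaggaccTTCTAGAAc
F44E5.4 to F44E5.5: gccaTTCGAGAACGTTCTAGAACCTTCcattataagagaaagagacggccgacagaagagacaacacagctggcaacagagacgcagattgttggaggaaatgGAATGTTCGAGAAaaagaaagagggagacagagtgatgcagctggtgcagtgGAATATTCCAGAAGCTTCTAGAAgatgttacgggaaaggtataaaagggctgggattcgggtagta
The F44E5.4 to F44E5.5 sequence held 10 pairs, the hsp-90 sequence 4, the hsp-16.2 to hsp-16.41 sequence 3 and the hsp-1 sequence 2.

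Shorter windows are shown for AGACGCAG, an 8-base word taken from the strongest peaks of these same data, so that its presence at them is no independent evidence. The windows are 30 bases around each match, with the word in capitals, for hsp-3 (chrX:6092143-6092172, plus strand), for hsp-16.2 (chrV:1805105-1805134, minus strand) and for F44E5.4 and F44E5.5 (chrII:11759495-11759524, plus strand).
hsp-3: gcagcgcgcagAGACGCAGagtcattcggc
hsp-16.2: tgggtgcaaagAGACGCAGacggaaaatgt
F44E5.4: gctggcaacagAGACGCAGattgttggagg
The centre of the word lay 3 bp from the candidate summit at hsp-3, 48 bp at hsp-16.2 and 27 bp at F44E5.4.

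Every one of the 8 genes had at least 1 pooled candidate, against 28.4% of all protein-coding genes. A candidate among the 1000 strongest by signal value was in reach of 7 of them, all but hsp-3, against 5.83% of genes. Among the 500 strongest the count was 5 (hsp-1, hsp-16.2, hsp-90, hsf-1 and dnj-13), against 3.06%. At least 4 candidates were in reach of 5 genes, against 1.03%. A candidate with an entry in both replicates within 200 bp of its summit was found at 5 genes, against 3.17%. A thresholded peak was found at hsp-1 alone, against 0.200%. By the replicate lists alone, 6 genes had an entry of replicate 1, against 12.7%, and all 8 had an entry of replicate 2, against 13.2%. The window searched was similar in size for the 8 genes and for genes at large, with medians of 4844.5 and 4182 bp. The genes were chosen with these counts known, so the distance from the background shares is part of the choice.

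The median best pooled rank was 463.5 over the 8 genes and 2817 over the 5679 protein-coding genes with a candidate. Below hsp-1 at rank 8 came hsp-16.2 at 158, hsp-90 at 208, hsf-1 at 432, dnj-13 at 495, hsp-70 at 514, hsp-4 at 821 and hsp-3 at 1282. The replicates ordered the genes differently. In replicate 1 the best entries were rank 9 for hsp-1, 151 for hsp-90, 208 for hsp-16.2, 644 for dnj-13, 845 for hsp-70 and 1397 for hsf-1, with none for hsp-3 or hsp-4. In replicate 2 dnj-13 was first at 57, then hsp-1 at 60, hsp-90 at 71, hsp-70 at 281, hsp-16.2 at 496, hsf-1 at 693, hsp-3 at 764 and hsp-4 at 2582. These best entries need not be the same site in every list.

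**Figure D1:**
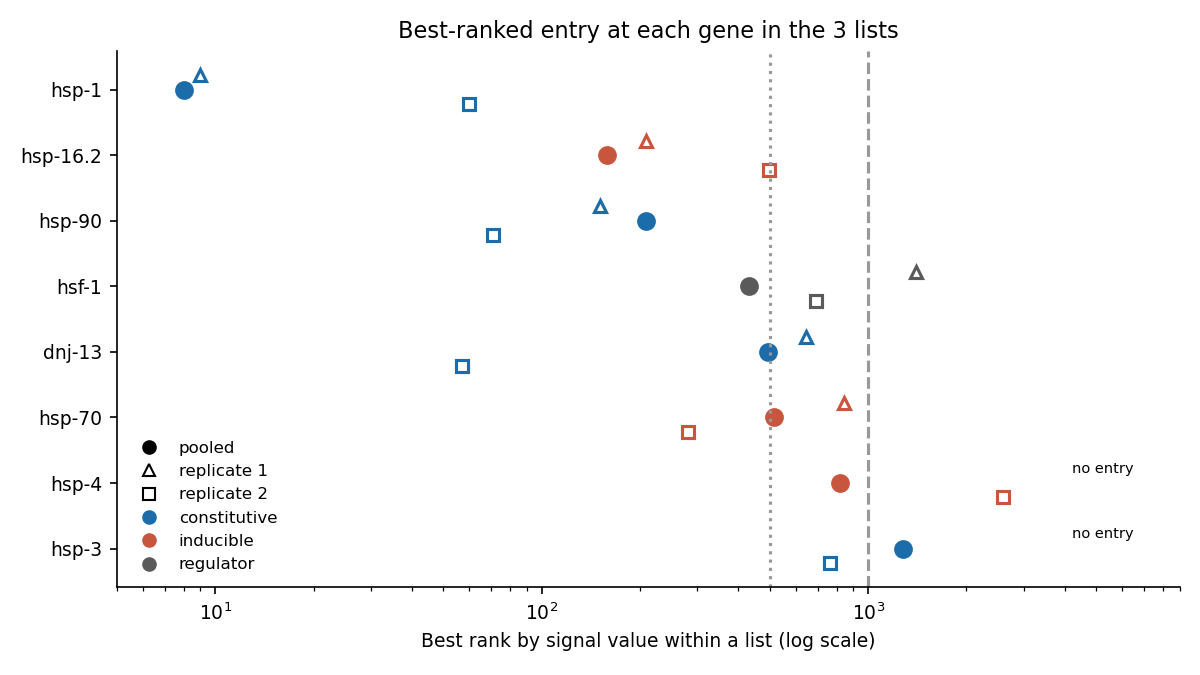
Best rank by signal value (horizontal log axis) of any entry in reach of each gene, in the pooled list (filled circles), replicate 1 (triangles) and replicate 2 (squares), with the dotted and dashed lines at ranks 500 and 1000. Only hsp-1 stayed within the first 60 entries of all 3 lists, and hsp-3 and hsp-4 had no entry in replicate 1.

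The cytosolic Hsp70 hsp-1, the constitutive Hsc70 of the worm, had 6 pooled candidates. The gene (WBGene00002005) lies on chromosome IV from 17278959 to 17281330 on the plus strand with 1 annotated start. Its strongest candidate, upstream of the start, was rank 8 of 6708 in the pooled list, rank 9 in replicate 1 and rank 60 in replicate 2. The signal values were 34.2 in the pooled list, 18.2 in replicate 1 and 8.38 in replicate 2, each on the scale of its own list. Replicate summits lay 32 and 40 bp from the pooled summit, and 378 bp separated that summit from the start. The interval, chrIV:17278379-17278782, ended before the start, and no other gene had a nearer start.

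The other hsp-1 candidates were weaker and none was in both replicates. Rank 1095 (signal value 5.66) lay in a coding exon 1423 bp into the gene and was in neither replicate. Rank 1315 (5.16) lay in a coding exon 623 bp into the gene, where replicate 2 had its rank 378 entry (4.60) at the same summit. Upstream, rank 1397 (4.99) lay 405 bp from the start of the lectin gene clec-196, nearer than the hsp-1 start at 1017 bp, and neither replicate had it. Rank 2004 (4.12) in an intron was matched by rank 967 of replicate 1 (3.42), and rank 2691 (3.49) in a coding exon by rank 822 of replicate 2 (3.39). So the gene body candidates had at most 1 replicate each, and the replicates did not share any of them. Just past the 3′ end, outside the rule, a pooled candidate of rank 471 (8.31) lay 2425 bp from the start. Within 200 bp of it replicate 1 had its rank 248 entry (6.24), with the summit in the 3′ UTR of hsp-1.

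The cytosolic Hsp90 hsp-90 (WBGene00000915, chromosome V from 14684918 to 14688545, plus strand) also had 6 candidates, all inside the gene. It has 2 annotated starts, 1242 bp apart. The summits were 235 to 1132 bp apart, with a median gap of 287 bp, and 4 of the 6 were in both replicates, the most of the 8 genes. The strongest, rank 208 (11.4), lay 1956 bp after the second start and had rank 151 in replicate 1 (7.23) but no entry in replicate 2. Rank 286 (10.1) and rank 443 (8.52), both in coding exons, had entries in both: rank 1998 (2.41) in replicate 1 and rank 71 (7.91) in replicate 2 for the first, and ranks 201 (6.65) and 166 (6.22) for the second. The start nearest to these 3 summits was that of C47E8.11, 500 to 1113 bp away. The high entries of both replicates thus lay toward the 3′ end of the gene, where the pooled list also had its 3 strongest.

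Around the second hsp-90 start the candidates were weaker. Rank 668 (7.09) lay 314 bp before it and had only a replicate 2 entry, rank 311 (4.93). Rank 939 (6.06) lay 211 bp after it in a coding exon, with rank 590 in replicate 1 (4.34) and rank 1229 in replicate 2 (2.80). Rank 4706 (2.74) lay 76 bp before it, with rank 947 in replicate 1 (3.48). The same rank 1229 entry of replicate 2 was within 200 bp of both, so these 2 candidates share their replicate 2 support. No pooled candidate lay at the first start.

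The Hsp40 gene dnj-13, a J-domain co-chaperone of Hsp70, had 4 candidates. It (WBGene00001031, chromosome II from 11545701 to 11547360, plus strand) lies within dhgd-1 on the annotation, so all 4 summits were also inside that gene. Rank 495 (8.10) lay in a coding exon 782 bp from the start and had no entry in replicate 1. In replicate 2 the nearest entry, 92 bp away, was rank 2101 (2.30). The rank 57 entry of that replicate (8.49), 672 bp from the start, was also within 200 bp of that pooled summit. Rank 522 (7.93) lay 120 bp before the start and was the candidate with both replicates, at rank 644 (4.14) and rank 1512 (2.75). The candidates of rank 1163 (5.50) and rank 3983 (2.78) were in neither replicate. Those last candidates lay 59 and 101 bp from the starts of F54D5.7 and F54D5.9, nearer than to dnj-13.

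The ER Hsp70 hsp-3, the constitutive member of the BiP pair, had the fewest candidates. The gene (WBGene00002007, chromosome X from 6089028 to 6092124, minus strand) had 1, rank 1282 (5.24), at 37 bp before its first start. Replicate 1 had no entry in reach, and replicate 2 had rank 2556 (2.07), 109 bp from the pooled summit. Replicate 2 also had rank 764 (3.50) at 912 bp before the start, where the pooled list had none. The gene was the only constitutive member with no candidate in both replicates.

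The heat-inducible Hsp70 hsp-70 (WBGene00002026, chromosome I from 9320325 to 9322519, minus strand) had 4 candidates and none in both replicates. It lies within uggt-2, and so did all 4 summits. Rank 514 (7.98) lay 305 bp before the start and was rank 281 in replicate 2 (5.14), with nothing in replicate 1. Rank 1474 (4.86) lay 1 bp inside the 5′ UTR and was matched by rank 845 in replicate 1 (3.63). Rank 1227 (5.38), in a coding exon 1814 bp from the start, was matched by rank 1349 in replicate 1 (2.80). Rank 5165 (2.49), in a coding exon 1104 bp from the start, was matched by rank 1173 in replicate 2 (2.92). Each candidate therefore had exactly 1 replicate, and the replicates divided the 4 evenly.

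The small heat shock protein gene hsp-16.2, widely used as a reporter of the heat shock response, had 4 candidates within 1309 bp. The gene (WBGene00002016, chromosome V from 1804334 to 1804957, minus strand) is 624 bp long and shares its upstream region with hsp-16.41, which runs the other way. The summit of the strongest candidate, rank 158 (12.29), was not in that shared region but past the 3′ end of hsp-16.2. The interval of that candidate (chrV:1804084-1804487) reached into the gene. The candidate was rank 211 in replicate 1 (6.53) and rank 496 in replicate 2 (4.20), the latter 169 bp from the pooled summit. That replicate 2 entry was the only one of its list in reach, and it lay 34 bp from another pooled candidate, rank 2580 (3.58) in a coding exon. Both candidates thus rest on the same replicate 2 entry.

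Between the divergent genes, rank 1379 (5.0) lay 115 bp before the hsp-16.2 start and 106 bp before that of hsp-16.41. Replicate 1 had rank 545 (4.47) there, 9 bp away, and replicate 2 had no entry. Rank 1099 (5.65) lay inside hsp-16.41, with rank 208 in replicate 1 (6.57) and none in replicate 2. The shared upstream region therefore had support from replicate 1 only.

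The ER Hsp70 hsp-4, the BiP gene induced by unfolded protein in the ER, had 2 candidates, neither in replicate 1. The gene (WBGene00002008, chromosome II from 7350112 to 7352645, minus strand) has 3 annotated starts. Rank 821 (6.48) lay in an intron 52 bp before the second of them and had rank 2582 in replicate 2 (2.06), 120 bp away. Rank 5566 (2.34) lay in an intron near the 3′ end and had no entry in either replicate. Both BiP genes thus lacked replicate 1 entries.

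The heat shock factor gene hsf-1 (WBGene00002004, chromosome I from 11953507 to 11963085, minus strand) had 2 candidates, both upstream, in the longest of the 8 genes. Rank 432 (8.56) lay 1811 bp before the nearest start and was in both replicates, at rank 1633 (2.69) and rank 693 (3.68). Rank 3958 (2.78) lay 157 bp before the first start and had an entry of replicate 1, rank 1397 (2.78), at the same summit. Among summits outside the 8 genes, the rank 432 candidate lay nearest inside the 2000 bp limit of the rule. The nearest pooled candidates outside the limit were rank 6232 (2.19) at hsp-4, 2189 bp from a start, and rank 2957 (3.37) at hsp-3, 2213 bp from a start.

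**Figure D2:**
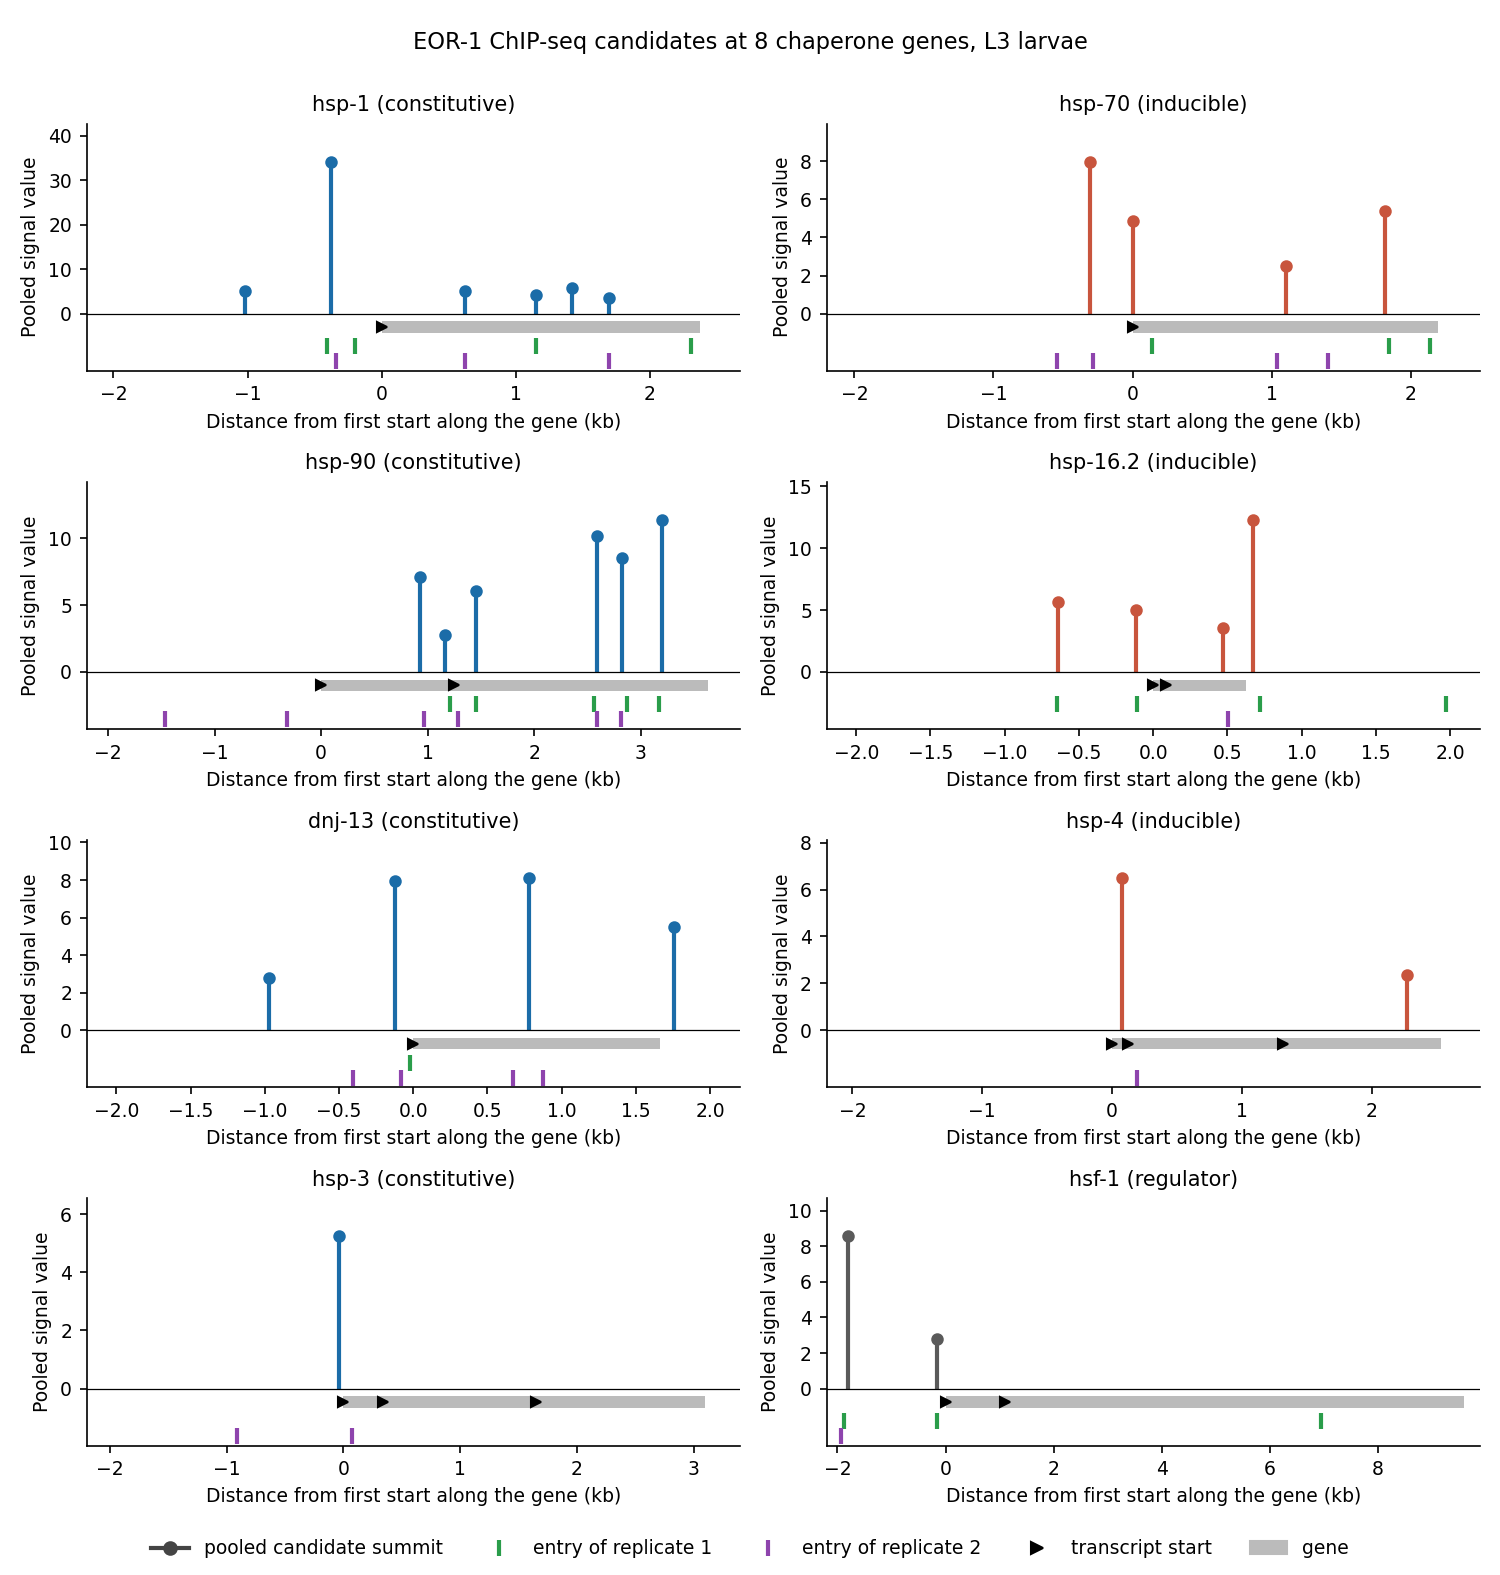
Pooled signal value (vertical axis, scaled separately for each gene) of every pooled candidate by the distance of its summit from the first annotated start in kb, with the gene as a grey bar, its starts as triangles, and the summits in the replicate lists as ticks below. The upstream summit of hsp-1 at 34.2 stood above the other 5 candidates of that gene, at 3.49 to 5.66, while the strongest summits of hsp-90 and hsp-16.2 were toward or past the 3′ end of the gene.

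The constitutive genes (hsp-1, hsp-90, dnj-13 and hsp-3) and the inducible genes (hsp-70, hsp-16.2 and hsp-4) were then compared. A candidate was found at 4 of 4 and 3 of 3, and a candidate among the 1000 strongest at 3 of 4 and 3 of 3. Among the 500 strongest the counts were 3 of 4 and 1 of 3, and the median best ranks were 351.5 and 514. The ranges overlapped, since the constitutive genes held both the best rank (hsp-1) and the worst (hsp-3). At least 4 candidates were in reach of 3 of 4 constitutive and 2 of 3 inducible genes, and a candidate in both replicates of 3 of 4 and 1 of 3. The only inducible gene with both was hsp-16.2, through the 3′ candidate whose replicate 2 entry lay 169 bp away. With so few genes, chosen with these values known, no difference between the classes was tested.

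In all, the 8 genes had 29 candidates. Of these, 10 were upstream, 10 in coding exons, 6 in introns, 2 downstream and 1 in a 5′ UTR. A start of the gene itself was the nearest start for 21, and 9 lay inside another protein-coding gene, namely all of those at dnj-13 and hsp-70 and the hsp-16.2 candidate in hsp-16.41. Candidates per kb of reach ran from 0.173 at hsf-1 to 1.37 at hsp-1, against a mean of 0.0729 over all genes.

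Entries in both replicates were most frequent among the strongest candidates. Pooled candidates come from the combined replicate reads, so part of this sharing is built in. The replicate entries are therefore no independent evidence for a pooled candidate. Both replicates held 5 of the 7 candidates among the 500 strongest, beside 60.4% of all such candidates. They held 2 of the 5 at ranks 501 to 1000, beside 25.2%, and 0 of the 9 at ranks 1001 to 2000, beside 7.0%. Below rank 2000 they held 1 of 8, the hsp-90 candidate before the second start whose replicate 2 entry is shared with rank 939, beside 0.531%. Over all ranks 8 of 29 were in both, beside 7.80% of all 6708 candidates, and 5 were in neither. Replicate 1 held 15, beside 31.2%, and replicate 2 held 17, beside 28.4%. The share in both was 27.6% (exact Clopper-Pearson 95% interval 12.7 to 47.2%, counting error only). The genes were chosen with these entries known, so the interval does not extend to other genes. Candidates of the same gene are not independent. The replicate lists also held 3 entries of replicate 1 and 6 of replicate 2 in reach of the genes with no pooled summit within 200 bp.

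Pairs of heat shock units, which need only short matches, lay within 100 bp of 17 of the 29 summits, beside 20.3% of all 6708 pooled summits. That share depended on place. It was 28.5% of the 829 pooled summits in a coding exon of the gene with the nearest start, and 19.1% of the other 5879. Pairs were near 10 of 17 constitutive, 7 of 10 inducible and 0 of 2 hsf-1 candidates. By place, they were near 5 of the 6 intron, 6 of the 10 upstream and 4 of the 10 coding exon candidates. Elements of 3 units lay within 100 bp of 2 summits, rank 1474 at hsp-70 and rank 1379 at hsp-16.2, both inducible genes, beside 1.22% of all summits. At these 2 genes the element centres were 68 and 51 bp from the summit. These matches and the ones below are letters in a window, searched on both strands.

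GAGAGA lay within 100 bp of 5 summits, beside 26.9% of all, and all 5 were upstream: ranks 8 and 1397 at hsp-1, 522 at dnj-13, 1099 at hsp-16.2 and 3958 at hsf-1. A share of 5 of 29 was not above that of the whole list. AGACGCAG lay within 100 bp of 3 summits, beside 7.13% of all, namely rank 1282 at hsp-3, rank 1227 at hsp-70 and rank 1379 at hsp-16.2. None of these 3 was among the 1000 strongest, and no candidate held both words.

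The transcript starts were also searched, from 300 bases before to 50 after each start, whether or not a candidate lay there. Elements of 3 heat shock units were at a start of 5 of the 8 genes, 3 constitutive (hsp-1, hsp-90 and hsp-3) and 2 inducible (hsp-70 and hsp-16.2), beside 2.91% of all protein-coding genes. A pair of units was at a start of all 8, beside 43.2%, and GAGAGA at 4, beside 28.0%. AGACGCAG was at 2, hsp-3 and hsp-16.2, beside 4.89%, and TATAAA, on the strand of the gene, at 5, beside 30.8%. The distance from element to candidate differed between the genes. At hsp-1 the element centre was 138 bp before the start and 240 bp from the rank 8 summit, outside that pooled interval. Intervals of both replicates covered the element, however. They were the rank 60 entry of replicate 2 (chrIV:17278373-17278868) and a rank 1983 entry of replicate 1 (2.45, chrIV:17278553-17278968). At the 8 genes the intervals of each list had a fixed width around the summit, so coverage does not measure the extent of signal. At hsp-90 the elements were 79 and 9 bp before the first start, and the nearest pooled summit was 937 bp or more away. Replicate 2 alone had an entry nearer, rank 2000 (2.39) with its summit 322 bp before that start, and its interval (chrV:14684348-14684843) reached into the element 79 bp before the start. At hsp-3 the element was at the third start, 1731 bp or more from the candidate. Beyond the 300 bases searched, dnj-13 had an element of 3 units 403 bp before its start, 283 bp from the rank 522 summit. Replicate 2 had a rank 1698 summit (2.55) at that element, with no pooled summit within 200 bp. One at hsf-1 lay 497 bp before its second start, 761 bp from the nearest pooled summit.

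**Figure D3:**
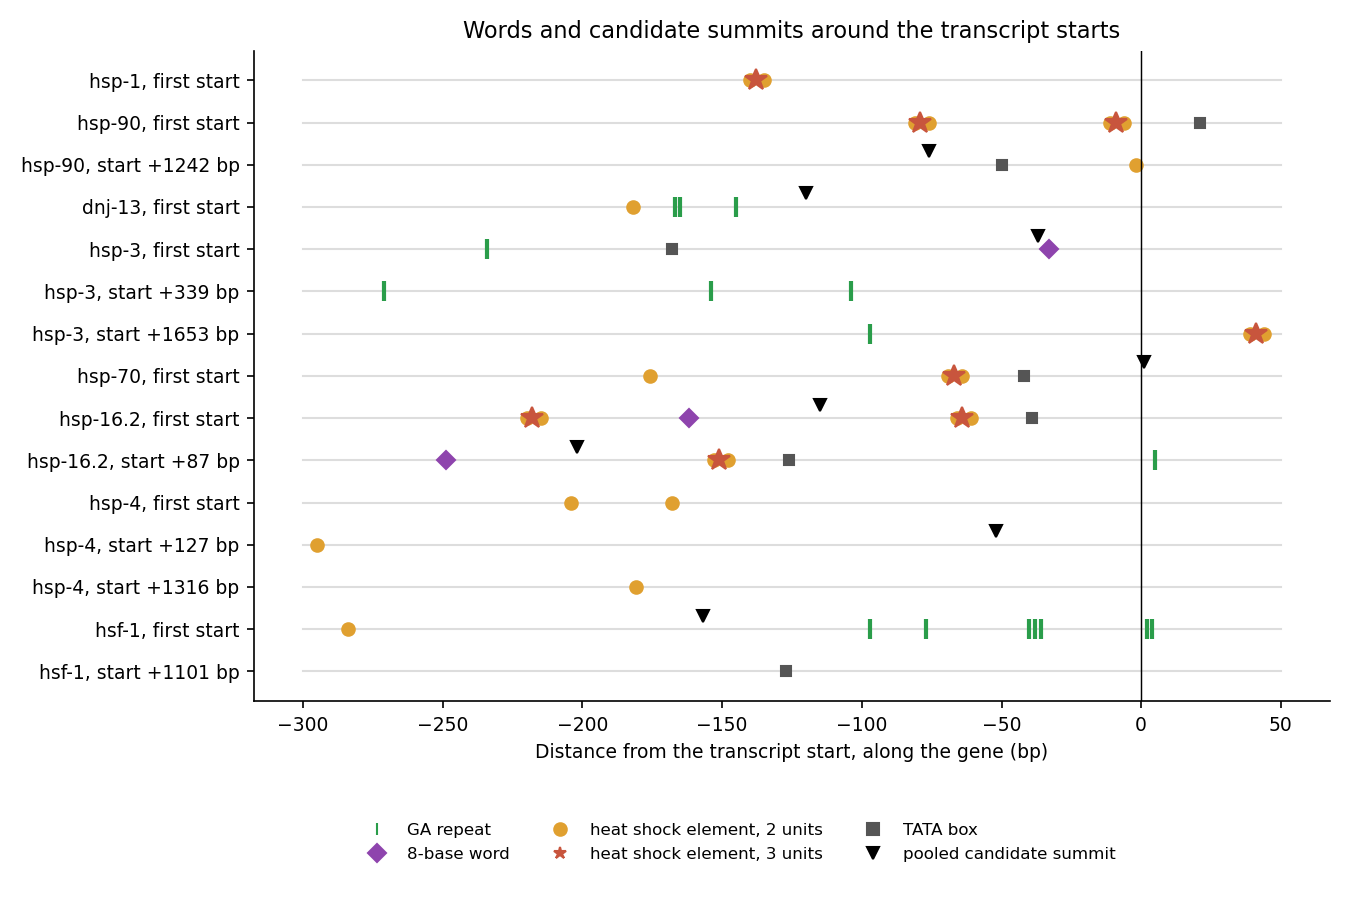
Positions in bp of heat shock elements of 2 and 3 units, GA repeats, the 8-base word and TATA boxes from 300 bases before to 50 after every annotated start of the 8 genes, with pooled candidate summits as black triangles. At hsp-70 and hsp-16.2 a 3-unit element and a pooled summit were in the same window, whereas at hsp-1 and the first start of hsp-90 no pooled summit was in the window.

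To place the 8 genes among related ones, lists of chaperone genes were drawn up by family. Of 94 other chaperone network genes, 58 had a candidate (61.7%), 23 had one among the 1000 strongest (24.5%) and 15 among the 500 strongest (16.0%), which can be read beside the background shares of 28.4%, 5.83% and 3.06%. A candidate in both replicates was in reach of 8 of the 94, beside 3.17% of all genes, and a thresholded peak of 0, beside 0.200%. The lists were drawn up with earlier results of these data known, so these shares are descriptions. The 94 include hsp-16.41, which counts among the 58, 23, 15 and 8 through the rank 158 candidate of the member hsp-16.2. With the 8 genes included, candidates were in reach of all 5 cytosolic Hsp70 and Hsp110 genes and of 1 of their 2 listed cofactor genes (bag-1 but not chn-1). They were in reach of 14 of 18 ER chaperone and unfolded protein response genes, 12 of 16 small heat shock protein genes and 10 of 14 chaperonin and prefoldin genes. The counts were 4 of 9 for Hsp90 and its co-chaperones, 12 of 29 for the Hsp40 genes and 2 of 4 for hsf-1 and its regulators. The order of these families depended on the rule: the small heat shock count fell to 6 with starts within 500 bp or the nearest start only, and the chaperonin and prefoldin count to 5 with the nearest start only. The hsf-1 list fell to 1 under both rules. The share of all protein-coding genes fell too, to 19.3% with starts within 500 bp and 20.2% with the nearest start only. Among the 500 strongest Hsp90 and its co-chaperones had 3 of 9 and the ER list 4 of 18. Of the mitochondrial list, 2 of 5 chaperone genes and all 5 stress response regulator and protease genes had candidates. None was among the 1000 strongest, the best being rank 1102 (5.64) at atfs-1, the activator of the mitochondrial stress response. Neighbouring genes of a family can share a candidate, and highly expressed genes were not set apart, since expression was not measured here.

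**Figure D4:**
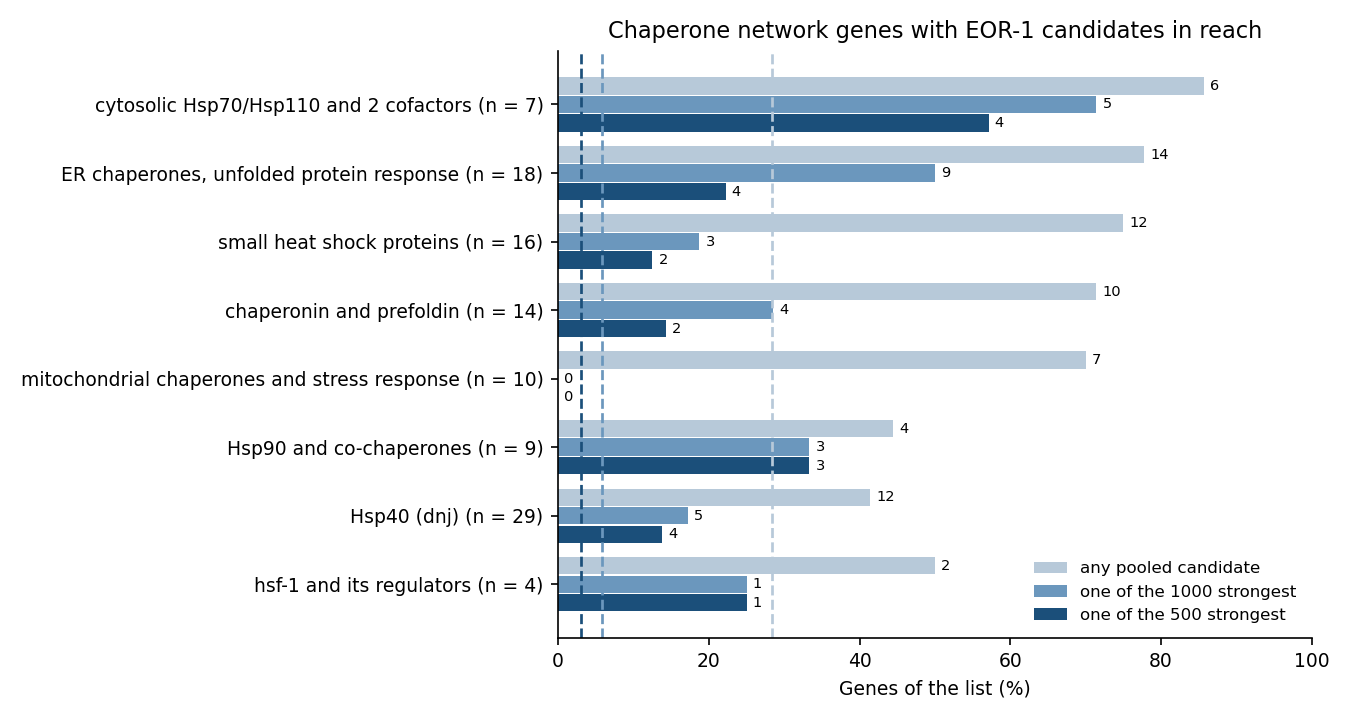
Percent of the genes of each chaperone list (n beside the name, counts at the bars, the 8 genes included) with any pooled candidate in reach, one among the 1000 strongest and one among the 500 strongest, with dashed lines in matching colours for all protein-coding genes (28.4%, 5.83% and 3.06%). Among the 500 strongest were candidates of 4 of the 5 cytosolic Hsp70 and Hsp110 genes, of neither cofactor gene listed with them, and of 0 of the 10 mitochondrial chaperone and stress response genes.

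Among the other cytosolic Hsp70 genes, hsp-110, a nucleotide exchange factor of Hsp70, had rank 61 (16.6), in both replicates at ranks 1265 and 301. That summit lay between divergent genes, 223 bp before hsp-110 and 221 bp before the proteasome gene rpn-3. The heat-inducible pair F44E5.4 and F44E5.5 shared rank 142 (12.7), 226 and 125 bp before their starts, with rank 109 in replicate 1 (8.03) and no entry in replicate 2. The inducible Hsp70 genes hsp-70, F44E5.4 and F44E5.5 therefore each had an upstream candidate supported by a single replicate, which was replicate 2 for hsp-70 and replicate 1 for the divergent pair.

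In the ER group, enpl-1, the Grp94 gene, had rank 117 (13.6) at 26 bp before its start, with rank 128 in replicate 2 only. The ER stress kinase gene pek-1 had rank 146 (12.5) with rank 42 in replicate 1 only, and xbp-1, the transcription factor of the ER response, had rank 433 (8.55) with rank 2545 in replicate 2 only. Calreticulin, crt-1, had rank 210 (11.4) and was in both, at ranks 190 and 307. These 4 were named because their candidates were among the strongest, so their better pooled ranks than hsp-4 and hsp-3 follow from that choice. The ER list genes not named here ran from rank 585 at cnx-1 to rank 4759 at pdi-1, and some had no candidate.

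Of the co-chaperones, the Hsp40 gene dnj-12 had rank 316 (9.79) and the Hsp90 co-chaperone genes fkb-6 and sgt-1 had ranks 298 (9.97) and 417 (8.66), all 3 in both replicates. The Hsp40 genes dnj-19 at rank 88 (15.3) and dnj-14 at rank 450 (8.48), the chaperonin subunit gene cct-1 at rank 454 (8.44) and the prefoldin subunit gene pfd-1 at rank 435 (8.55) had 1 replicate each. For these last 4, and for fkb-6 and sgt-1, the start of another gene was nearer to the summit, as it was for several candidates of dnj-13 and hsp-16.2. The small heat shock gene hsp-16.41 took the rank 158 candidate of hsp-16.2, at 892 bp from its own start.

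Genes with a 3-unit heat shock element at a start were compared with other genes over the whole annotation, a comparison chosen after the values at the 8 genes were seen. Of 581 such genes, the 5 members included, 34.9% had a candidate and 8.61% had one among the 1000 strongest. Of the 19392 genes without such an element the shares were 28.2% and 5.75%. The 581 held the 5 members, all with a candidate and all but hsp-3 with one among the 1000 strongest. They also held 13 other network genes, 6 of them with one among the 1000 strongest. All of these were listed with earlier results known, and the shares without them were not computed. Among the 94 other network genes, 12 of 13 with the element had a candidate, and 46 of 81 without it. The 12 include hsp-16.41, whose best candidate, rank 158, is also that of the member hsp-16.2. Neighbouring genes share candidates, so the best candidates of those 12 genes were 8 distinct ones.

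The DNA of the 8 genes was nearly unique. Of the 36-base words in each gene and the 500 bp around its starts, 97.2% (hsf-1) to 100% occurred once in the genome. These windows did not cover the best candidate summits of hsp-16.2 and hsf-1, nor some weaker ones of hsp-1 and dnj-13. Of the summits at the 8 genes, only the strongest of hsp-1 had a window of its own, with 100% unique words.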

How the data were processed

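The authors deposited peak lists of EOR-1 ChIP-seq on ce11 for each of 2 biological replicates and for the pooled reads, plus a list thresholded on the irreproducible discovery rate. Per the file lists that were deposited, every list was called against 2 control entries, separately for each replicate and once for the reads of both, and the thresholded list was made from these 3. The lists before thresholding hold background entries besides peaks, so their entries are candidates. The deposited signal value is the peak caller's own. It was used only to rank entries within a list. The deposited −log10 q-value served only as an alternative ranking, since 784 pooled candidates shared its highest value of 3.20. Not given in the sources used here are the aligner, the peak caller, versions, filters, normalization and the threshold, while read depth is unknown, and no read counts or p-values were used. The ce10 lists were not used.

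Summits were assigned to genes of Ensembl release 115 within 2000 bp of a start or inside the gene, and replicate summits within 200 bp counted as support, the nearest being used. Such support is not independent of the pooled candidates, which come from the same reads. Sequence came from RefSeq WBcel235. The assignment code was checked on simulated summits planted at random distances from starts, inside and outside the reach. Of 200 planted summits, 200 were assigned or left out as the rule states, which checks the code only. Positions are 1-based, and pooled intervals were 404 bp wide. A summit in several annotated parts was placed in the 5′ UTR first, then coding exon, 3′ UTR and intron. Python 3.11.15, numpy 2.4.6, scipy 1.17.1 and matplotlib 3.10.9 were used.

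The 8 genes, their classes and the other lists were chosen with earlier results of these data known; the classes follow textbook knowledge. Genes named from the lists were all 8 members, every list gene with a candidate among the 500 strongest or a thresholded peak, otherwise the best of the list, and genes with a start nearer to a summit. Duplicated hsp-16 gene names were matched through RefSeq coordinates, and hsf-2, annotated as a pseudogene, was left out. Alternatives changed the distance, the list, the support distance, the search window and the word length. No value was tested, because the same lists chose the genes.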

Additional observations from a re-analysis of the deposited data

How the results depend on the processing

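Counts of 8 genes, 4 constitutive and 3 inducible, with a candidate held with start distances of 500, 1000 and 5000 bp, with starts only, with any overlap of the peak interval and with the nearest start only. The share of all genes with a candidate, 28.4% by the main rule, was 19.3%, 22.4% and 44.9% at 500, 1000 and 5000 bp. It was 26.3% with starts only, 29.9% with any overlap and 20.2% with the nearest start only. With the 1000 strongest candidates it was 5.83%, and with the 500 strongest 3.06%, with 5 of the 8 genes and 1 inducible gene. With the thresholded list it was 0.2%, with 1 of the 8 genes, 1 constitutive and 0 inducible. With 1 replicate left out the counts were 6 to 8 genes, 3 to 4 constitutive and 2 to 3 inducible, and the share 12.7% to 13.2%. Candidates in both replicates numbered 4 when summits had to lie within 100 bp and 13 within 400 bp, against 8 at 200 bp.

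Pairs of heat shock units lay near 8 summits within 50 bp (10% of all) and 21 within 200 bp (37.9%), against 17 within 100 bp (20.3%), and GAGAGA near 3 (15.7%) and 10 (40.2%), against 5 (26.9%). With 1 replicate left out, genes with a candidate numbered 5 to 9 for small heat shock genes, 5 to 7 for chaperonin and prefoldin genes, 7 to 9 for Hsp40 genes, 8 to 12 for ER genes, and 3 for mitochondrial genes. With at most 1 mismatch, AGACGCAG lay near 4 summits (19.9% of all), and with 50-base words the unique share of the 8 genes was 97.5% (hsf-1) to 100%. Ranking by the deposited p-value was not run, because that column holds no values here. The q-value ranking was chosen after seeing the data: 784 candidates shared the highest value, and 6 of the 8 genes had such a candidate. No paired analysis was possible because the labels give 1 group. Read depth is unknown, so what depth limits could not be measured.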

Other observations

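The second hsp-16 cluster on chromosome V, with hsp-16.1, hsp-16.11, hsp-16.48 and hsp-16.49, had 1 pooled candidate in its middle, at rank 1336 (signal value 5.11), with rank 820 in replicate 2 (3.40) and no entry in replicate 1. In the 4 genes and the 500 bp around their starts, 0% of 36-base words occurred once in the genome, whereas all words within 100 bp of that summit did. At F44E5.4 and F44E5.5 the unique share was 11.7% and 11.9%, and 95.8% within 100 bp of their shared summit. Candidates in the repeated part of these genes would depend on how reads with several matches were placed, a step that the sources used here do not give.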
